A study of Homo sapiens with 6 samples.

Results

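The region described here is the histone and MHC region of the short arm of chromosome 6, chr6:25700001-33500000 on hg19 (GRCh37). Its members were the PAI-1 ChIP-seq peaks whose midpoint lies in that interval, with identical intervals of a library counted as 1 peak. It held 1019 of the 380031 peaks of the 4 ChIP libraries. By library these were 229 of 96423 peaks for RT112 replicate 1 and 150 of 60227 for its replicate 2, and 307 of 109287 for UM-UC-3 replicate 1 and 333 of 114094 for its replicate 2. RT112 and UM-UC-3 are established human bladder cancer cell lines, and no treatment is named for either of them. Chromatin from nuclear extracts was precipitated with a monoclonal antibody (clone 3F2) against plasminogen activator inhibitor-1 (PAI-1), a secreted inhibitor of the urokinase and tissue plasminogen activators, in 2 libraries labelled as biological replicates per line. The 2 input libraries, 1 per cell line, were not analysed here, and each group is 1 cell line, so a difference between groups cannot be told apart from any other difference between these lines. The peak lists hold no read counts, which leaves the depth behind each peak unknown, and intervals for counting error could not be given.

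This stretch of 6p carries the largest cluster of replication-dependent histone genes, which encode the core and linker histones made in S phase. Toward the centromere it continues through butyrophilin, zinc finger and olfactory receptor genes into the major histocompatibility complex (MHC). There the class I and class II genes encode the HLA molecules that present peptides to T cells, and the class III genes between them include the complement components C2, factor B and C4.

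Reference sequence is given for 5 loci of the region, where a locus is a set of overlapping peaks merged over the libraries. The first 4 are shown because all 4 libraries have a peak there, and the last because it is the best-ranked UM-UC-3 locus. They were read from GRCh37 on the plus strand, and at most 300 bases around the shared part are shown. Capitals mark the bases covered by a peak in every library that lists the locus. Intergenic means outside the genes of the annotation used, and no list of tRNA genes was consulted.

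Intergenic locus of the distal histone block, chr6:27745429-27745728: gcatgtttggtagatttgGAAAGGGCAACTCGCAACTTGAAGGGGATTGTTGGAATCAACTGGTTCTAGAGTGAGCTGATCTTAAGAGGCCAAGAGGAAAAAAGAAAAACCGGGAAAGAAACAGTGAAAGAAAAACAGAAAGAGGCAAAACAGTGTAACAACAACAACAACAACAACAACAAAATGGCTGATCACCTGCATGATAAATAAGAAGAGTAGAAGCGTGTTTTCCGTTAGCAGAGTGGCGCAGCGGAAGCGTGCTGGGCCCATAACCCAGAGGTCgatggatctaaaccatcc

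LINC03003 intron, chr6:29194927-29195226: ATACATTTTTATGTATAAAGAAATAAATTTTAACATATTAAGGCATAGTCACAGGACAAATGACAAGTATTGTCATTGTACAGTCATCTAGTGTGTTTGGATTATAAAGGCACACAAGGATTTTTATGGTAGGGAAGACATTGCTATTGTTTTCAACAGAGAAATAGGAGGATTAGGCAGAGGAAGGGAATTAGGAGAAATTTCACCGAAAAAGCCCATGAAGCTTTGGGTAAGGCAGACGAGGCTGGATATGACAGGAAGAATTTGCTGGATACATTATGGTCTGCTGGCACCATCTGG

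POLR1HASP intron, chr6:29950587-29950886: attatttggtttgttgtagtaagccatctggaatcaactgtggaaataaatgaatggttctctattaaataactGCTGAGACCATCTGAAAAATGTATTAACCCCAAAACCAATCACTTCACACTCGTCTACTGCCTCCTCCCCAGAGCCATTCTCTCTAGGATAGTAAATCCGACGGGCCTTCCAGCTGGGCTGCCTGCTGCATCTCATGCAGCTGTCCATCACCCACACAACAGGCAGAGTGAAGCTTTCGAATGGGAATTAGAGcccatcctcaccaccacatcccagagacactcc

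POU5F1 intron, chr6:31146431-31146730: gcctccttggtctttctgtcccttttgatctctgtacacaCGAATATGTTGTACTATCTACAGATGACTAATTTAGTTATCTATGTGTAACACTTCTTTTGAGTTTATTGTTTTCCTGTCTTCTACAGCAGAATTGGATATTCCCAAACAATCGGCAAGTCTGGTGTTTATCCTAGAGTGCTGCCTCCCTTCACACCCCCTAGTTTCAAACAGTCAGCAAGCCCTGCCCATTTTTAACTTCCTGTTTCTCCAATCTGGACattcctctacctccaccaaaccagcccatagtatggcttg

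ZKSCAN4 (UM-UC-3), chr6:28215749-28216048: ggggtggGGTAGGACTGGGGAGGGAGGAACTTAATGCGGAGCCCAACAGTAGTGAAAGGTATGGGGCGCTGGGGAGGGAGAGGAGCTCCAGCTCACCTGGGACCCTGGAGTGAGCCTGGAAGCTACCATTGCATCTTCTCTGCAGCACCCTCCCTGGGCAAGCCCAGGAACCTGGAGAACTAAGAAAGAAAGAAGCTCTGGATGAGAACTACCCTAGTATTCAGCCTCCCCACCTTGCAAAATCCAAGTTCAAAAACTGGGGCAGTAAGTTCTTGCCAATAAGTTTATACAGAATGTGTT

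These stretches were largely unique in the reference. For each locus, the share of its 32-base words that occur at another place of GRCh37 was computed. It was 0% at the LINC03003, POLR1HASP, POU5F1 and ZKSCAN4 loci and 5.87% at the intergenic locus. Loci found in all 4 libraries but not shown here had larger shares. These were 17.5% at chr6:26452148-26453006, over exons of BTN3A3, and 43.0% at chr6:26454569-26454820 beside it.

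To determine how densely the region was covered, peaks per Mb were compared with the rest of 6p, that is, the arm up to the centromeric gap without this region. Density in the region was 29.4 and 19.2 peaks per Mb in the RT112 replicates and 39.4 and 42.7 in those of UM-UC-3. In the rest of 6p it was 36.5, 23.5, 45.6 and 48.6 peaks per Mb in the same order. All 4 libraries were thus sparser in the region, with a ratio of 0.803 and 0.818 in RT112 (0.811 ± 0.0103, SD, n = 2) and of 0.864 and 0.879 in UM-UC-3 (0.872 ± 0.0110, SD, n = 2). The mean log2 ratio over the 4 libraries was -0.251 (two-sided exact sign-flip permutation test, p = 0.125, the smallest that 4 libraries allow, and 0.40 after Benjamini-Hochberg adjustment over the 6 tests made). The ratio was higher in UM-UC-3 by 0.0608, more than the spread between replicates (two-sided exact permutation test over libraries, p = 0.333, the smallest that 2 against 2 libraries allow, adjusted p = 0.40). That spread comes from 2 ratios per line and is itself poorly known. The ratios rest on only 150 to 333 peaks of the region per library, so 0.0608 cannot be said to exceed counting error. With other references RT112 stayed below 1 and UM-UC-3 did not. Against the rest of chromosome 6 the ratio was 0.876 and 0.943 in RT112, against 1.07 and 1.1 in UM-UC-3, and the mean log2 ratio was -0.0135. Against all other autosomes it was 0.870 and 0.911 in RT112, against 1.01 and 1.05 in UM-UC-3, and the mean log2 ratio was -0.0608.

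The region is much richer in genes than the rest of the arm, with 35.0 protein-coding genes starting per Mb against 6.76, and its GC content was 43.4% against 41.4%. Peaks were narrow in all libraries, with median widths of 301 and 262.5 bp in the RT112 replicates and of 272 and 267 bp in those of UM-UC-3. Together they covered 0.944%, 0.555%, 1.22% and 1.27% of the region in that order.

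The 250 kb bins showed where the peaks were. Over the 31 complete bins of the region the count for RT112 ran from 2 to 14 with a median of 8 in replicate 1 and from 0 to 10 with a median of 4 in replicate 2. For UM-UC-3 it ran from 2 to 21 and from 3 to 19, with a median of 10 in each replicate. Over 201 bins of the rest of 6p the medians were 9, 5, 11 and 12. The fullest bin of UM-UC-3 was chr6:29200001-29450000, at OR5V1 and the olfactory receptor genes around it, with 21 and 19 peaks. The same bin held 10 and 3 peaks in RT112. Few peaks fell in the neighbouring bins chr6:31700001-31950000 and chr6:31950001-32200000, which span the complement genes. The first held 5 and 2 peaks in RT112, against 2 and 4 in UM-UC-3, and the second 5 and 2 in RT112, against 3 and 3 in UM-UC-3. The bin of HLA-DRB1, HLA-DQA1 and HLA-DQB1, chr6:32450001-32700000, held 2 and 0 peaks in RT112, against 4 and 5 in UM-UC-3. Its 0 in RT112 replicate 2 was the only count of 0 in any library among the 31 complete bins of the region and the 201 of the rest. In 11 of the 31 bins all 4 libraries lay below their own mean over the rest of 6p, and in 1 bin, chr6:29950001-30200000 in the class I block, all 4 lay above it.

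**Figure D1:**
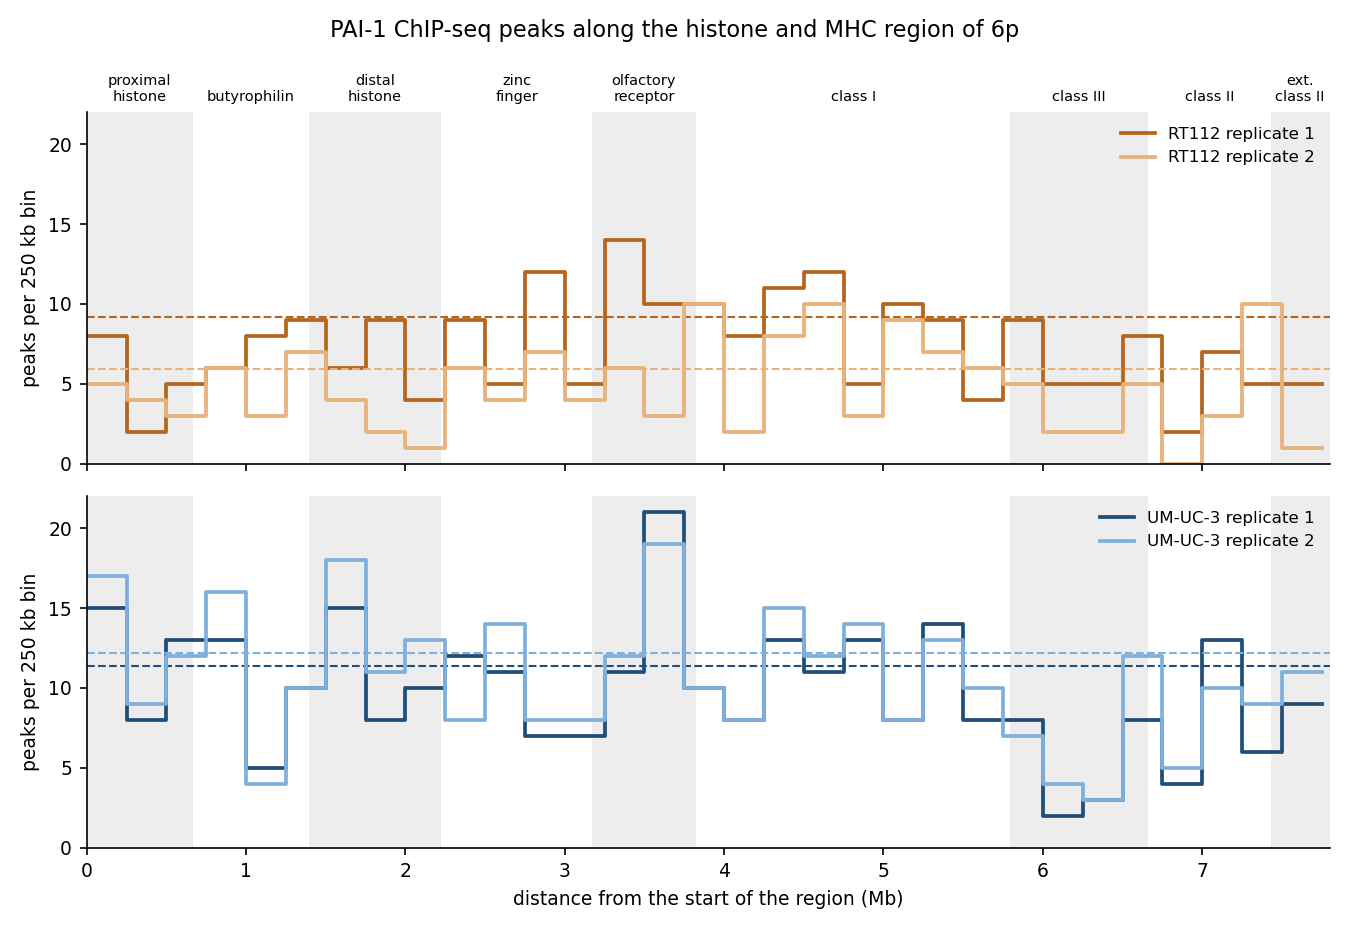
Peaks per 250 kb bin (vertical axis) against distance from the start of the region in Mb (horizontal axis), RT112 above and UM-UC-3 below, 1 line per replicate, with shading for the 9 blocks and dashed lines for each library's mean over the rest of 6p. UM-UC-3 reaches 21 and 19 peaks in the olfactory receptor block and drops to between 2 and 4 across 2 neighbouring bins of the class III block.

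The profile over bins was close between the UM-UC-3 replicates (Pearson's r = 0.89 over 31 bins), looser between the RT112 replicates (r = 0.55) and weak between the lines (r = 0.14 to 0.30 for the 4 pairs of libraries). These are descriptions, since neighbouring bins of a library share its depth and base composition. GC content and peak count ran in opposite directions over the bins in UM-UC-3 (r = -0.42 in both replicates) and showed little relation in RT112 (r = -0.21 and -0.03).

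For a finer account the region was divided at fixed genes into 9 blocks. The class III block, from MCCD1 to BTNL2, held 26 and 13 peaks in RT112, against 16 and 18 in UM-UC-3. Its density over that of the rest of 6p was 0.823 and 0.640 in RT112, against 0.406 and 0.429 in UM-UC-3, so that UM-UC-3 was the lower line there and its replicates lay below both RT112 libraries. The class II block, from BTNL2 to COL11A2, had the opposite order, with 0.462 and 0.553 in RT112, against 0.770 and 0.75 in UM-UC-3. It held 5.68% and 6.67% of the RT112 members and 8.79% and 8.41% of the UM-UC-3 members, a difference of 2.43 percentage points (two-sided exact permutation test, p = 0.333, adjusted p = 0.40), which turned to -0.516 when peaks with a score of at least 10 were used. The proximal histone block stood at 0.494 and 0.767 in RT112, against 0.989 and 0.99 in UM-UC-3, and the distal histone block at 0.757 and 0.512 in RT112, against 0.950 and 1.11 in UM-UC-3. RT112 was the lower line in both histone blocks. The 2 lines did not overlap in any of the 9 blocks, so this separation was not particular to the histone blocks. The same comparison was not made for other parts of the arm, so how often lines separate elsewhere is not known. RT112 was the higher line in the zinc finger, class I and class III blocks and the lower in all others. In class I this rests on 0.929 in RT112 replicate 1 against 0.923 in UM-UC-3 replicate 1. The counts behind some blocks are small, with 9 and 6 peaks of RT112 and 12 and 16 of UM-UC-3 in extended class II. The olfactory receptor block was the only block above 1 in both UM-UC-3 libraries, at 1.28 and 1.2, while RT112 stood at 1.13 and 0.782. The class I block lay near the level of the arm, at 0.929 and 1.14 in RT112, against 0.923 and 0.918 in UM-UC-3. The butyrophilin, zinc finger and extended class II blocks lay between 0.666 and 0.944 in all 4 libraries.

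**Figure D2:**
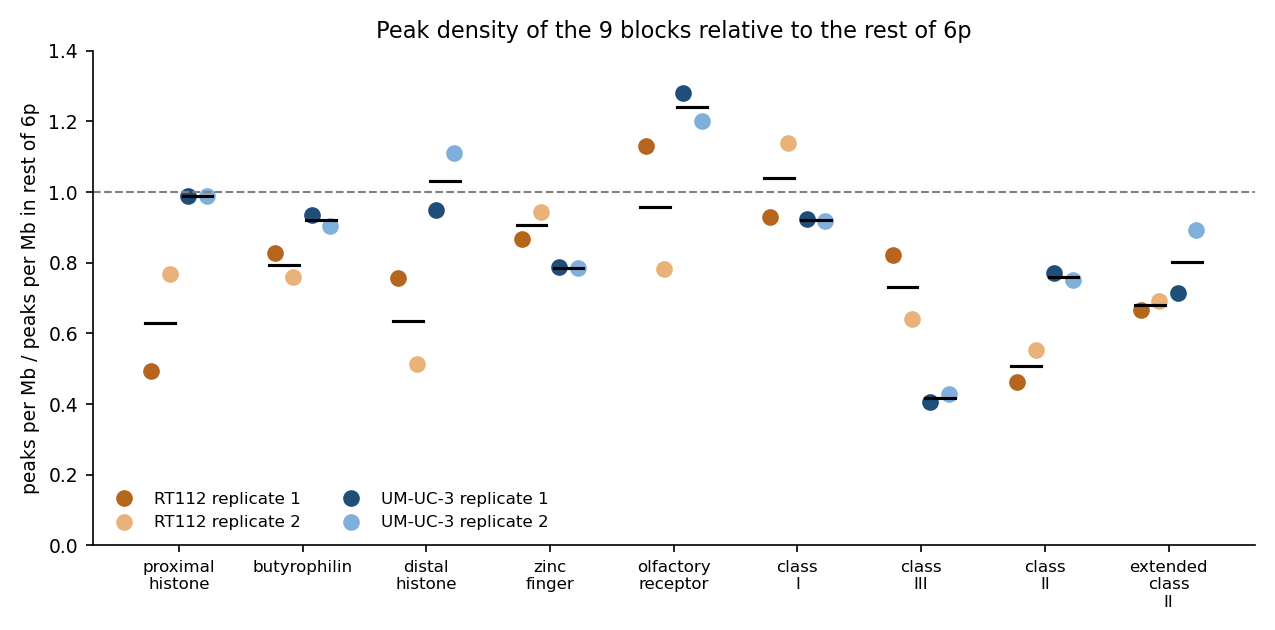
Density of peaks in each of the 9 blocks divided by the density in the rest of 6p (vertical axis), 1 point per library, with the line at 1 marking the density of the rest of the arm and short bars the mean of the 2 replicates. Class III is lowest in UM-UC-3 (0.406 and 0.429) and class II has the lowest mean in RT112 (0.462 and 0.553), where the distal histone block is lower in replicate 2 (0.512).

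Longer stretches without any peak were found at the same places. Over both RT112 libraries together, the longest stretch was 206.9 kb, chr6:32397895-32604788, and held HLA-DRA, HLA-DRB5 and HLA-DRB1 and reached into HLA-DQA1. In RT112 replicate 2 alone it extended to 426.0 kb, against 292.8 kb for the longest stretch of that library in the rest of the arm. The next in RT112 was 188.8 kb, with 13 coding genes in or reaching into it, among them CFB and both C4 genes, and the one after that was 184.4 kb in the proximal histone cluster, chr6:26109798-26294155, with 19 coding genes in or reaching into it, from H2BC4 to H4C8. Over both UM-UC-3 libraries the longest stretches were 162.4 kb from MSH5 to C2, with the heat shock genes HSPA1L, HSPA1A and HSPA1B in it, and 134.8 kb from C2 to TNXB. In the rest of 6p the longest reached 219.3 kb for RT112 and 218.9 kb for UM-UC-3. That part spans 51.0 Mb against 7.80 Mb and so has more room for a long stretch, and the 2 maxima are not like for like. The median distance between neighbouring peaks was longer in the region in all 4 libraries. It was 22.4 and 33.6 kb in RT112 and 16.9 and 16.6 kb in UM-UC-3. In the rest of 6p it was 17.9, 27.9, 14.8 and 14.0 kb in the same order. These differences were not tested.

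Peaks were next assigned to genes, and a gene counted when both replicates of a line placed a peak inside it or at most 3 kb outside. Of all 20163 protein-coding genes of the genome, 40.4% had such a peak in RT112 and 53.7% in UM-UC-3. Of the 275 coding genes that lie in the region or reach into it, 48 did in RT112 (17.5%) and 85 in UM-UC-3 (30.9%), and of 342 in the rest of 6p 48.8% and 62.6% did. Genes of the region are short, with a median length of 7.36 kb against 27.2 kb over all coding genes, and a longer gene has more room for a peak. Shares differed by class of length. Among genes under 1 kb they were 6.52% (RT112) and 2.17% (UM-UC-3) in the region, against 5.78% and 16.9% outside it. Among genes of 1 to 5 kb they were 7.94% and 15.9%, against 7.05% and 13.2%. Among genes of 5 to 20 kb in the region they stood at 17.6% for RT112 and 34.4% for UM-UC-3, against 14.9% and 26.2% outside it. Among genes over 20 kb they were 43.9% and 75.6% against 61.0% and 76.7%. Over the histone, HLA, olfactory receptor and complement genes together, 7 of 93 had a replicated peak in RT112 and 19 of 93 in UM-UC-3, with a median gene length of 1.25 kb.

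Histone genes were mostly free of peaks. Of 52 coding histone genes, with a median length of 0.496 kb, 5 carried a peak in both RT112 libraries and 3 in both UM-UC-3 libraries. The share was 9.62% and 5.77%, against 17.5% and 30.9% of all coding genes of the region. Of the 41 histone genes under 1 kb, 3 (RT112) and 0 (UM-UC-3) did, where 5.78% and 16.9% of the coding genes of that length outside the region did. Of the 11 of 1 kb or more, 2 and 3 did. All of these genes were in the proximal cluster. There, 5 of 31 genes carried a peak in both RT112 libraries and 3 of 31 in both UM-UC-3 libraries. In the distal cluster 1 of 21 genes had a peak in any library, H4C9, which encodes histone H4 and had a score of 5.51 in UM-UC-3 replicate 2 alone. By that measure 13 of the 52 histone genes had a peak. Among coding genes under 1 kb it was 9 of 46 in the region, histone genes included, and 192 of 467 outside it. The 16 genes from H2BC13 to H2BC17, over 86.4 kb, had none within 3 kb in any of the 4 libraries, and the peak nearest to any of them was 3.54 kb away. The share of 32-base words that occur elsewhere in the genome ran from 0% to 93.0% over the 52 genes, and its part in these counts was not tested.

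The 5 histone genes of RT112 rested on 3 pairs of peaks. H2AC1, a testis histone H2A gene at the telomeric end of the cluster, had a peak 588 bp away with scores of 7.43 and 6.56 in RT112 and 1 of 3.30 in UM-UC-3 replicate 2. The adjoining genes H3C2 (histone H3) and H2AC4 (histone H2A) shared a weak peak, with scores of 2.41 and 2.64, and had none in UM-UC-3. H1-6, the testis linker histone, and H2BC4 (histone H2B), whose annotated span of 37.6 kb includes H1-6, shared a peak with scores of 2.76 and 2.97. In UM-UC-3, H2BC4 had other peaks, with best scores of 3.88 and 3.85. H2BC6 (histone H2B) had scores of 5.0 and 3.79 in UM-UC-3 and its nearest RT112 peak 62490 bp away. The highest-scoring peak at a histone gene was a locus 2059 bp from H3C6, a histone H3 gene, with 19.2 and 11.7 in UM-UC-3, while the nearest RT112 peak was 66455 bp away. H2BC4 was thus the only histone gene with a replicated peak in both lines, and its peaks lay at different positions in them.

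Of 19 coding HLA genes, 9 carried a peak in both UM-UC-3 libraries (47.4%) and 0 in both RT112 libraries, where 4 genes had a peak in replicate 1 and 1 other gene in replicate 2. Over all coding genes the shares were 53.7% and 40.4%, and over those of the region 30.9% and 17.5%, so UM-UC-3 was the higher line there too. The HLA genes had a median length of 8.31 kb. Among coding genes of 5 to 20 kb the shares were 34.4% (UM-UC-3) and 17.6% (RT112) in the region, and 26.2% and 14.9% outside it. In UM-UC-3 the HLA genes were 3 of 6 class I and 6 of 13 class II genes. The difference was not tested, since a gene is not a replicate of a cell line.

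Among the class I genes, which present peptides from inside the cell, HLA-G, a nonclassical gene known from the placenta, had scores of 7.66 and 8.95 in UM-UC-3 and the peak lay in the gene. The classical gene HLA-B had scores of 6.61 and 2.63 in UM-UC-3 and none in RT112, and HLA-F, another nonclassical gene, had 3.88 and 2.63. HLA-C, another classical gene, and the nonclassical HLA-E had no peak in any library, the nearest lying 12248 bp and 11433 bp away.

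Among the class II genes, which present peptides taken up from outside the cell, those with a replicated peak in UM-UC-3 were HLA-DRB1 and HLA-DQB1, which encode classical beta chains, and HLA-DMA, HLA-DMB, HLA-DOA and HLA-DOB, whose products control peptide loading. HLA-DMA had scores of 3.88 and 11.2, HLA-DMB 2.64 and 3.85, HLA-DOA 5.12 and 5.10, and HLA-DOB 5.19 and 2.63. HLA-DRB1 had 2.18 and 4.44. HLA-DQB1 had 5.19 and 6.57 in UM-UC-3 from a flanking locus, and 2.76 in RT112 replicate 1. HLA-DOA also had 2 peaks in RT112 replicate 2, the better at 2.19. HLA-DQA1, an alpha chain, had 1 peak of 2.76 in RT112 replicate 1, and HLA-DPB1, a beta chain, 1 of 3.85 in UM-UC-3 replicate 2. HLA-DQA2 had 1 peak of 14.6 in RT112 replicate 1 and none in the other libraries. HLA-DRA and HLA-DPA1, the alpha chains of HLA-DR and HLA-DP, had no peak in any library. Reads were placed on a single reference haplotype, and the part of sequence divergence of these lines from it was not tested.

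Of 18 coding olfactory receptor genes, which encode odorant receptors, 6 carried a peak in both UM-UC-3 libraries and 1 in both RT112 libraries. The UM-UC-3 share of 33.3% was near the 30.9% of all coding genes of the region, and the RT112 share of 5.56% stood beside 17.5%. The olfactory receptor genes are shorter, however, with a median length of 3.60 kb against 7.36 kb. Among coding genes of 1 to 5 kb the shares were 15.9% (UM-UC-3) and 7.94% (RT112) in the region, and 13.2% and 7.05% outside it. The UM-UC-3 share was thus above that of genes of this length, a difference that was not tested. OR5V1, annotated over 78.2 kb, had 3 and 1 peaks in RT112, against 10 and 9 in UM-UC-3, the most of any coding gene of the region in that line. Its best scores were 7.43 and 5.29 in RT112, against 14.6 and 12.9 in UM-UC-3. OR11A1, which overlaps it, had 2 and 0 peaks in RT112, against 3 and 4 in UM-UC-3. OR12D3, inside the span of OR5V1, had scores of 3.88 and 2.63 in UM-UC-3, and OR10C1 had 6.17 and 6.14 there and 4.94 in RT112 replicate 1. OR2W1 had 6.61 and 5.16, and OR2J3 had 8.46 and 6.98 in UM-UC-3 and 5.29 in RT112 replicate 2. The annotated spans of OR5V1, OR12D3, OR11A1 and OR10C1 overlap in part, so a peak can count for more than 1 of them.

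The 4 complement genes differed among themselves. C2, the second component of the classical pathway, had 1 and 2 peaks in RT112, against 1 and 3 in UM-UC-3. Its best scores were 9.16 and 6.56 in RT112, against 5.19 and 6.58 in UM-UC-3. The replicated RT112 peak of C2 is intronic, and it had no peak of UM-UC-3 over it, so both lines had a peak in C2 at different positions. CFB, which encodes factor B of the alternative pathway, had 1 peak of 4.94 in RT112 replicate 1. C4A and C4B, the near-identical genes of component C4, had none in any library, the nearest lying 33125 bp and 20903 bp away. In each of these genes 98.3% of the 32-base words occur elsewhere in the genome, against 0% in CFB and 25.1% in C2, and the part of read placement in repeated sequence was not tested.

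**Figure D3:**
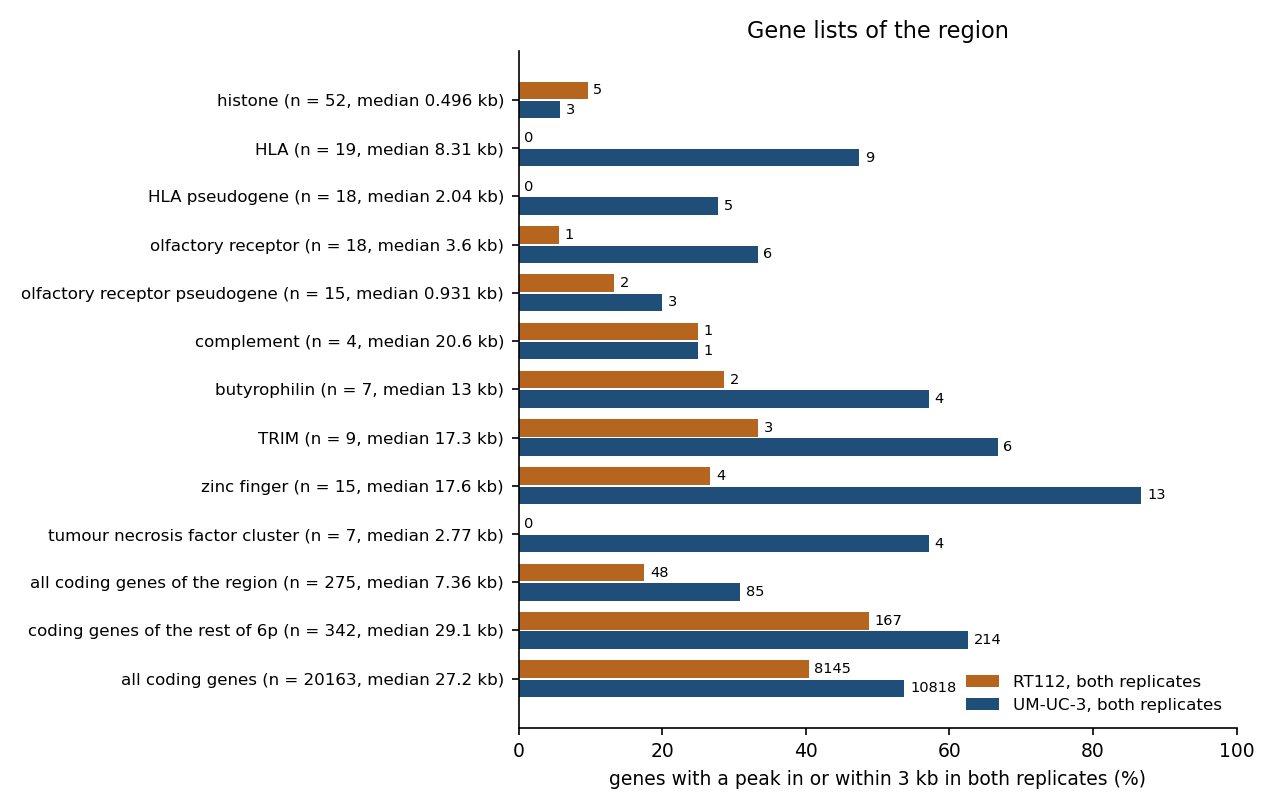
Percent of genes of each list with a peak in or within 3 kb in both replicates (horizontal axis), for RT112 and UM-UC-3, with the number of such genes beside each bar and the list's size and median gene length in its label. HLA genes stand at 0 of 19 in RT112 and 9 of 19 in UM-UC-3, histone genes at 5 and 3 of 52, and all coding genes at 40.4% and 53.7%.

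The genes of the region with most peaks were long. In RT112 they were TSBP1, a testis-expressed gene at the edge of class II, with 7 and 4 peaks, the unnamed coding gene ENSG00000290217, with 6 and 4, and GABBR1, a subunit of the GABA-B receptor, with 6 and 4. The span of ENSG00000290217 begins before the region, so part of its peaks are not members. In UM-UC-3 the same 3 genes held 3 and 4, 4 and 5, and 6 and 3 peaks. After OR5V1, UM-UC-3 had most peaks at the zinc finger gene ZNF391, with 5 and 6 against 1 and 0 in RT112. The next place was a tie of ENSG00000290217, GABBR1 and the mucin gene MUC22, which had 5 and 4 peaks there and 1 and 1 in RT112. Zinc finger genes encode DNA-binding proteins, many of them repressors. A peak in both UM-UC-3 libraries was found at 13 of 15 of them, at a median length of 17.6 kb, and a peak in both RT112 libraries at 4 of 15 (86.7% and 26.7%, against 53.7% and 40.4% of all coding genes). Outside the region the shares were 26.2% and 14.9% of coding genes of 5 to 20 kb, the class of that median. They were 76.7% and 61.0% of those over 20 kb. The zinc finger genes fall in both classes.

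Sharing between libraries was examined with an overlap of at least 1 bp. In RT112 replicate 1, 77 members (33.6%) overlapped a peak of the other replicate, against 38.2% of all peaks of that library. In RT112 replicate 2 it was 77 members (51.3%) against 61.3%. In UM-UC-3 it was 238 members in each replicate, 77.5% against 74.9% in replicate 1 and 71.5% against 71.7% in replicate 2. Sharing in the region was therefore below that of the whole library in RT112 and close to it in UM-UC-3. The share was higher in UM-UC-3 by 32 percentage points (two-sided exact permutation test over libraries, p = 0.333, adjusted p = 0.40), with means of 42.5% ± 12.5 and 74.5% ± 4.28 (SD, n = 2). Shared peaks often had nearly the same ends: both ends lay within 1 bp in 33 of 77 pairs in RT112 (42.9%) and in 152 of 238 pairs in UM-UC-3 (63.9%), but in 1 pair for each of the 4 combinations of lines, out of 8 to 18. The share was larger among peaks of higher score. In UM-UC-3 replicate 1, 93.5% of the members in the highest of 4 equal score groups were in the other replicate, against 57.1% in the lowest, and in RT112 replicate 1 these were 66.7% and 17.2%.

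Sharing between the cell lines was low, as over the whole lists. A peak of either library of the other line overlapped 19 members of RT112 replicate 1 (8.30%, against 7.02% of all its peaks), 9 of RT112 replicate 2 (6.0% against 7.73%), 20 of UM-UC-3 replicate 1 (6.51% against 5.98%) and 19 of UM-UC-3 replicate 2 (5.71% against 5.91%). The mean was lower in UM-UC-3 by 1.04 percentage points, a value of -1.04 within the spread of RT112 (SD 1.62, two-sided exact permutation test, p = 0.667, adjusted p = 0.667), and it became 0.110 without RT112 replicate 1. A peak in all 3 other lists was found for 6 members of each library, which is 2.62%, 4.0%, 1.95% and 1.8% of the members against 2.17%, 3.38%, 1.87% and 1.8% of all peaks, in the order of RT112 and then UM-UC-3 replicates. None of these shares was far from that of the whole library.

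**Figure D4:**
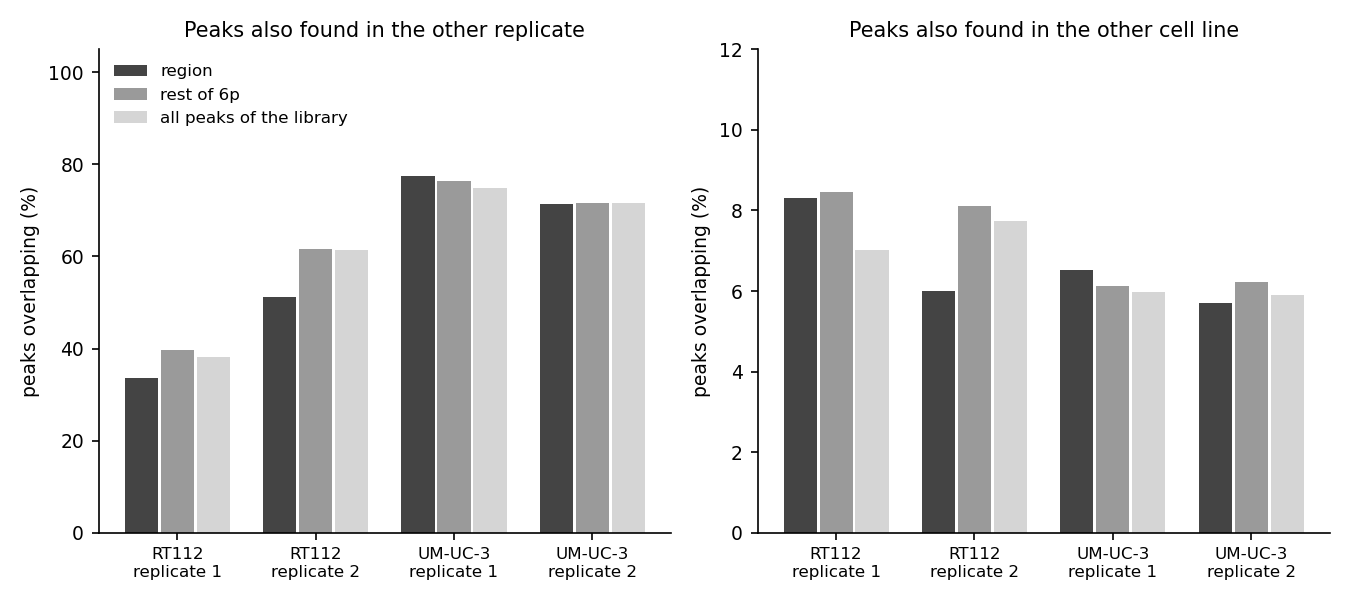
Percent of peaks that overlap a peak of the other replicate (left) and of either library of the other cell line (right), for the region, the rest of 6p and all peaks of each library. In RT112 the bars of the region are below the others for the other replicate (33.6% and 51.3%), and between the lines all bars lie below 9%.

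Merged over the libraries, the members formed 682 loci. Of these, 221 were found in both UM-UC-3 libraries alone, 71 in both RT112 libraries alone, 159 in 1 UM-UC-3 library and 209 in 1 RT112 library. There were 22 loci in both lines, 16 of them in 2 or 3 libraries and 6 in all 4. By block the 22 were 8 in class I, 3 each in the butyrophilin and extended class II blocks, 2 each in the olfactory receptor and class III blocks, and 1 in each of the others.

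The 6 loci found in all 4 libraries had no listed histone, HLA, coding olfactory receptor or complement gene within 3 kb. The highest-scoring was chr6:27745268-27745758, with 22.7 and 17.1 in RT112, against 16.4 and 18.1 in UM-UC-3. Its score was above 16 in every library. This locus lies between the distal histone runs and 29.5 kb from H2BC13. It is intergenic in the gene annotation used, and tRNA genes were not looked up. Next to each other were chr6:26452148-26453006, over exons of BTN3A3, a butyrophilin known as a regulator of gamma-delta T cells, with 6.15 and 5.29 in RT112, against 3.88 and 3.85 in UM-UC-3, and chr6:26454569-26454820, 926 bp from BTN3A3, with 3.80 and 6.56 in RT112, against 11.3 and 16.3 in UM-UC-3. The second of these neighbours had the higher score in all libraries but RT112 replicate 1. The locus chr6:29194853-29195249, in an intron of the noncoding gene LINC03003 and within 3 kb of the receptor pseudogene OR2G1P, had 16.1 and 7.90 in RT112, against 5.19 and 5.16 in UM-UC-3. The locus chr6:29950561-29950886, in an intron of the pseudogene POLR1HASP, had 7.43 and 9.32 in RT112, against 4.78 and 5.87 in UM-UC-3. The locus chr6:31146422-31146761, in an intron of POU5F1, which encodes the pluripotency factor OCT4, had 7.34 and 5.62 in RT112, against 12.4 and 13.9 in UM-UC-3. Scores are comparable only within a library, so these values rank each locus against its own library.

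The strongest replicated members of each line were mostly not found in the other. By mean rank of score, RT112 was led by the intergenic locus chr6:27745268-27745758, followed by chr6:31692198-31692500 over exons of MPIG6B, a platelet receptor gene (15.2 and 14.5), chr6:30834092-30834465, 9.7 kb from the collagen receptor gene DDR1 (21.0 and 10.8), chr6:31570343-31570640, 9.6 kb from the natural killer receptor gene NCR3 (14.2 and 16.1), and chr6:28471593-28471843 over an untranslated exon of the glutathione peroxidase gene GPX6 (14.2 and 15.3). The last 4 of these had no peak in UM-UC-3. UM-UC-3 was led by chr6:28215616-28216048, over a coding exon of the zinc finger gene ZKSCAN4 (35.4 and 26.0), and chr6:30081312-30081657, 445 bp from TRIM31, which encodes a ubiquitin ligase (23.8 and 37.6). Then came chr6:32260642-32261136 over exons of TSBP1 (33.6 and 19.9, with 2.37 in RT112 replicate 2), chr6:28068434-28068743, 6.7 kb from ZSCAN16 (24.6 and 20.8, with 7.94 in RT112 replicate 1), and chr6:32742153-32742436, 10.8 kb from HLA-DQB2 (20 and 25.6). Of these 5, the TSBP1 and ZSCAN16 loci had a peak in 1 RT112 library.

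**Figure D5:**
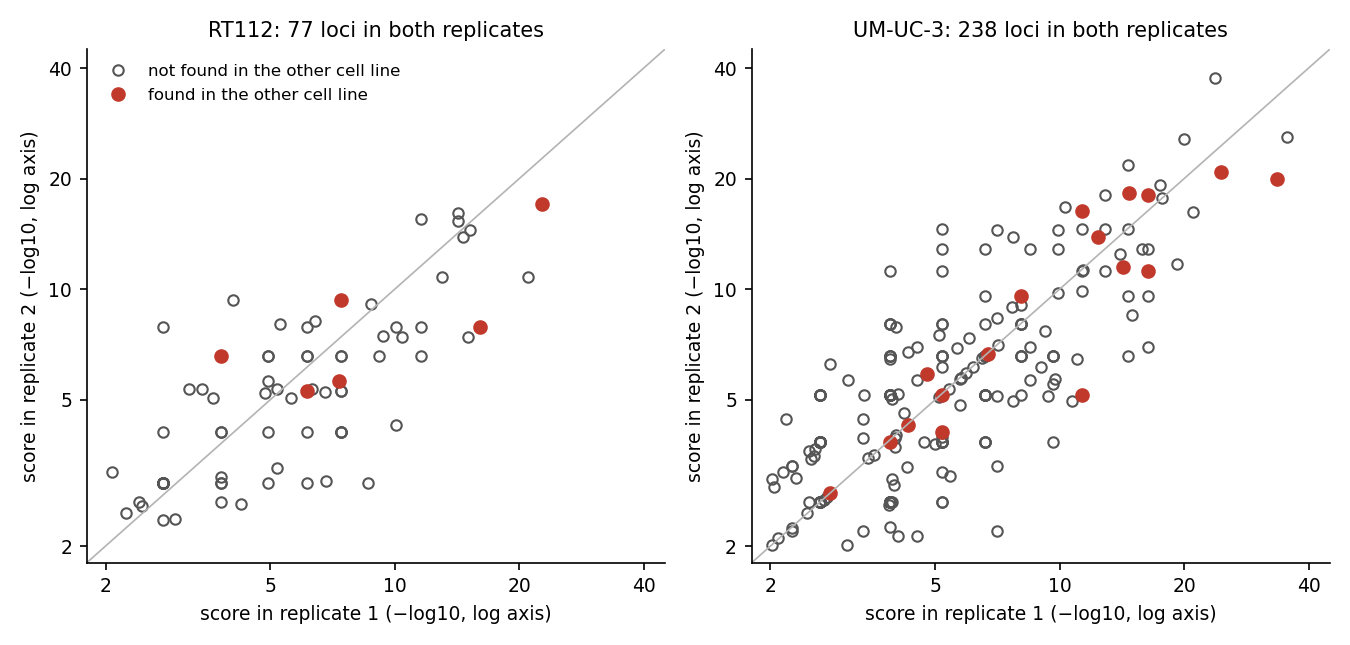
Score in replicate 2 against score in replicate 1 on log axes for the 77 loci of RT112 (left) and the 238 loci of UM-UC-3 (right) found in both replicates, with filled points for loci also found in the other cell line. The intergenic locus of the distal histone block is the filled point at 22.7 and 17.1 in RT112, and the highest UM-UC-3 scores are 35.4 in replicate 1 and 37.6 in replicate 2.

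The score of a peak, read as the −log10 of the peak caller's p-value or q-value, did not set the region apart in RT112. Its median was 3.80 in RT112 replicate 1 and 4.09 in RT112 replicate 2, the same as in the rest of 6p. In UM-UC-3 it was 4.28 and 4.57 against 3.89 and 3.87, a difference of 0.386 and 0.697 (0.541 ± 0.220, SD, n = 2). The difference was larger in UM-UC-3 by 0.541 (two-sided exact permutation test, p = 0.333, adjusted p = 0.40). A score of at least 10 was reached by 9.17% and 7.33% of the RT112 members, against 9.41% and 9.28% in the rest of 6p, and by 12.7% and 11.7% of the UM-UC-3 members, against 8.84% and 9.80%.

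Members lay near transcript starts more often than peaks elsewhere on the arm, but less often than evenly placed windows of the region. Between 37.6% and 41.1% of the members of a library lay within 3 kb of a transcript start, against 13.3% to 15% in the rest of 6p. Windows of 300 bp placed every 5 kb gave 44.9% in the region and 16.6% in the rest. The midpoint was within 1 kb of a coding transcript start for 8.30%, 8.0%, 10.7% and 9.01% of the members, in the order of RT112 and then UM-UC-3 replicates, and for 14.2% of the windows of the region. In each library the share of members lay above that of peaks elsewhere on the arm and below that of the evenly placed windows of the region, and these differences were not tested. Of the 682 loci, 74 (10.9%) had at least 50% of their 32-base words elsewhere in the genome, against 15.3% of the windows of the region. In the butyrophilin block it was 30.6% of 62 loci, the highest of the 9 blocks, and in the proximal histone block 1.72% of 58.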

How the data were processed

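PAI-1 ChIP-seq peak lists of 4 libraries were used, 2 biological replicates per the labels for each of RT112 and UM-UC-3. Per the methods and the submitters' processing notes, reads were aligned to hg19 with Bowtie 1.1.1, duplicates were handled with Picard and peaks were called with MACS2 2.1.0.20140616. The deposited lists give each peak's position and a score that was taken as −log10 of the caller's p or q value; which of these it is, and whether the input served as control, is not given in the sources used here. The lowest scores were 2.00 to 2.01. Repeated lines (195, 78, 131 and 161) were removed. Peaks were called per library, and the lists do not hold read counts or depth.

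Members, gene lists, blocks and tests were chosen with earlier results of these data known. Genes came from GENCODE 44 lifted to GRCh37, with a window of 3 kb, and no list of tRNA genes was used. Overlap meant at least 1 bp. The rest of 6p excluded the region and assembly gaps. Lines were compared over libraries with exact permutation tests and the region with the arm by an exact sign-flip test, with Benjamini-Hochberg adjustment over 6 tests. Named genes were all members of the 4 main lists with a peak in both replicates of a line, the classical HLA and complement genes, and the 3 genes with most peaks per line; other genes were named after their values were seen. Named peaks were the 5 best by mean rank per line and those in all 4 libraries. The scripts were tested on simulated data. Score minimums of 5 and 10, other overlap, membership, gene window and reference choices, leaving out each replicate and a replicate block were tried as alternatives. Python 3.11.15, numpy 2.4.6, pandas 2.3.3 and matplotlib 3.10.9 were used. Some items that these rules select, and some sequences, are not reported here.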

Additional observations from a re-analysis of the deposited data

Results flagged for a closer look

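In 8 of the 31 complete bins, both libraries of a line lay above their mean over the rest of 6p and both of the other line below it. These bins were picked for that pattern, and the difference was not tested. The same count was not made over the 201 bins of the rest of 6p, so whether 8 of 31 is unusual cannot be told. UM-UC-3 was the higher line in 3 of them. The bin chr6:25700001-25950000, at the start of the proximal histone cluster, stood at 0.872 and 0.845 of that mean in RT112 and at 1.31 and 1.39 in UM-UC-3. The bin chr6:27200001-27450000, with ZNF391, stood at 0.654 and 0.676 in RT112 and at 1.31 and 1.47 in UM-UC-3. The bin chr6:30450001-30700000, with HLA-E, stood at 0.545 and 0.507 in RT112 and at 1.14 and 1.14 in UM-UC-3.

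RT112 was the higher line in the other 5. The bin chr6:28450001-28700000, with GPX6, stood at 1.31 and 1.18 in RT112 and at 0.612 and 0.654 in UM-UC-3. The bin chr6:28950001-29200000, with OR2W1 and OR2J3, stood at 1.53 and 1.01 in RT112 and at 0.962 and 0.981 in UM-UC-3, all but the first close to the mean. The bin chr6:29450001-29700000, with GABBR1, stood at 1.09 and 1.69 in RT112 and at 0.874 and 0.817 in UM-UC-3. The bin chr6:30200001-30450000, with TRIM39, stood at 1.31 and 1.69 in RT112 and at 0.962 and 0.981 in UM-UC-3. The bin chr6:30700001-30950000, with DDR1, stood at 1.09 and 1.52 in RT112 and at 0.699 and 0.654 in UM-UC-3.

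The density of the whole region also fell on opposite sides of 1 in the lines for 2 of the 3 references. Over the rest of chromosome 6 it was 0.876 and 0.943 in RT112, against 1.07 and 1.1 in UM-UC-3, and over all other autosomes 0.870 and 0.911 in RT112, against 1.01 and 1.05 in UM-UC-3. Over the rest of 6p all 4 libraries were below 1. The position of a line against 1 was not tested.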

How the results depend on the processing

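Of 73 alternative values, 2 turned in direction, 8 were counts that moved by over 1.5 times, and 63 kept the direction (or, for counts, the size), several of them with another size. The class II share difference became -0.516 percentage points with scores of at least 10. The cell-line overlap difference became 0.110 without RT112 replicate 1. The listed genes with a replicated peak numbered 3 for RT112 and 10 for UM-UC-3 with scores of at least 5, 0 and 2 with scores of at least 10, 14 and 39 with a window of 10 kb, and 3 in RT112 without a window. With scores of at least 5 and at least 10 the density ratio difference was 0.124 and 0.431 in place of 0.0608, replicate overlap 18.5 and 13.8 points in place of 32, and cell-line overlap -4.78 and -4.36 points in place of -1.04. The class II difference was 4.68 points with scores of at least 5, and the mean log2 ratio -0.15 with scores of at least 10. Cell-line overlap was -0.606 points with a reciprocal overlap of 50%. The density ratio difference was 0.171 against the rest of chromosome 6 and 0.142 against the autosomes. Leaving out each replicate gave 0.0531 to 0.0686 for the density ratio difference, -0.272 to -0.229 for the log2 ratio of region to rest, 23.2 to 40.9 points for replicate overlap, -2.19 to 0.110 points for cell-line overlap, 0.386 to 0.697 for the score difference, 1.93 to 2.92 points for class II, 10 to 16 listed genes in RT112 and 21 to 25 in UM-UC-3. Against the rest of chromosome 6 the mean log2 ratio was -0.0135 (exact sign-flip permutation test, p = 1.0), and against the autosomes -0.0608. Same-numbered libraries deviated together with r = 0.06 over the region's bins, after each library was centred on its own mean. That step removes any effect common to a whole library, so whether the numbers pair the samples cannot be told from this value. With a replicate block the differences were 0.0608, 32, -1.04, 0.541 and 2.43 as without it (exact permutation test, smallest p 0.50). No test here could pass 0.05 with 4 libraries, so a kept side of the threshold says nothing about stability, and the depth behind each peak is unknown. The causes of these changes were not tested.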

Other observations

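Of the 7 genes of the tumour necrosis factor cluster in class III, 4 carried a peak in both UM-UC-3 libraries and 0 in both RT112 libraries (57.1% and 0%, against 30.9% and 17.5% of the coding genes of the region and 53.7% and 40.4% of all coding genes). Their median length was 2.77 kb, and of coding genes of 1 to 5 kb outside the region 13.2% and 7.05% did. NFKBIL1, at the edge of that cluster, had scores of 15.8 and 12.9 in UM-UC-3. TNF and LTA, which encode inflammatory cytokines, shared a peak with scores of 4.70 and 3.83 there. It lay in TNF, 1935 bp from LTA in replicate 1, so it counted for both genes. LTB had 3.41 and 3.07 in UM-UC-3 and 2.73 in RT112 replicate 1. Of 5 antigen processing genes, with a median length of 14.6 kb, 1 had a peak in any library, the proteasome subunit gene PSMB9, with 7.43 in RT112 replicate 1. By that measure 152 of the 275 coding genes of the region had a peak, and 77 of its 125 genes of 5 to 20 kb. The 3 heat shock genes had none, and 76.6% of the 32-base words of HSPA1A and 73.5% of those of HSPA1B occur elsewhere in the genome. MICA, a stress-induced ligand of natural killer cells, had a peak in all 4 libraries, with best scores of 2.07 and 3.19 in RT112, against 2.04 and 4.57 in UM-UC-3.

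Of 18 HLA pseudogenes, with a median length of 2.04 kb, 5 carried a peak in both UM-UC-3 libraries (27.8%) and 0 in both RT112 libraries. The shares were 13.2% and 7.05% for coding genes of 1 to 5 kb outside the region. For all coding genes of the region they were 30.9% and 17.5%, so UM-UC-3 was the higher line there too. HLA-V had scores of 10.7 and 4.97 and HLA-P 8.09 and 8.05 in UM-UC-3. HLA-DPA3 had 5.19 and 12.9 in UM-UC-3 and 10.8 in RT112 replicate 2. Of 15 olfactory receptor pseudogenes, 2 carried a peak in both RT112 libraries and 3 in both UM-UC-3 libraries. OR2J4P had 11.6 and 4.27 in RT112 and none in UM-UC-3.

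Butyrophilin genes, which regulate T cells, had a peak in both replicates at 2 of 7 genes in RT112 (28.6%) and 4 of 7 in UM-UC-3 (57.1%), against 17.5% and 30.9% of the coding genes of the region. BTN3A1 had 3 peaks in each UM-UC-3 library, with best scores of 16.4 and 14.6, and 1 of 2.76 in RT112 replicate 1. BTN2A1 had best scores of 8.75 and 9.14 in RT112 and a single peak of 2.64 in UM-UC-3 replicate 1. Of 9 TRIM genes, which encode ubiquitin ligases, 3 carried a peak in both RT112 libraries and 6 in both UM-UC-3 libraries (33.3% and 66.7%, against 17.5% and 30.9% of the coding genes of the region). TRIM39 and its read-through gene TRIM39-RPP21, counted as 2 of the 9, share the same peaks.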
